A study of Mus musculus with 18 samples.

Results

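The genes described here encode 8 inhibitors of mTORC1 or of the step it controls in translation: *Sesn1*, *Sesn2*, *Sesn3*, *Ddit4*, *Deptor*, *Eif4ebp1*, *Eif4ebp2* and *Eif4ebp3*. They were chosen by name from the 37303 genes of the expression table, by a rule that names the genes and sets no limit on their values, although earlier results of these data were known when the set was drawn up. All 8 were found, all had an estimate in every group, and all had a level over 3 FPKM (fragments counted over the gene, scaled to transcript length and library size) in some group. In 5 of the 8 the level was over 3 FPKM in every group.

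mTORC1 is a protein kinase complex that promotes protein synthesis and cell growth when amino acids and growth factors are present. Sestrins bind GATOR2 and so keep the Rag GTPases from recruiting mTORC1 to the lysosome, REDD1 (the product of *Ddit4*) acts through the TSC complex, and DEPTOR binds the kinase itself. The 4E-BPs stand below the complex: they hold the cap-binding protein eIF4E until mTORC1 phosphorylates them. The *Sesn2*, *Ddit4* and *Eif4ebp1* genes are known targets of ATF4, the transcription factor whose translation rises when the amino acid sensor GCN2 phosphorylates eIF2.

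RNA was sequenced from the livers of 18 mice, 3 in each of 6 groups: wild type (WT), Gcn2-/- and Atf4-/- mice, each given ASNase or PBS. ASNase is L-asparaginase, an enzyme drug that depletes asparagine and also glutamine. It was injected into the peritoneum on 8 days at 3 IU per g body weight, the PBS mice received an equal volume of the excipient, and the labels give 7.5 h from the last injection. All mice were on the C57BL/6J background and were aged 8 to 16 weeks by one label and 8 to 12 by another. Both deletions were homozygous and present in the whole body, so that the liver was not the only organ to lack the gene. Of the 3 mice, 1 was male in WT PBS, Gcn2-/- PBS and Gcn2-/- ASNase, and 2 were male by the labels in WT ASNase, Atf4-/- PBS and Atf4-/- ASNase. Strain, treatment and sex were therefore not balanced, and in WT the treatment and the larger number of males cannot be told apart. The number of males also differed for Gcn2-/- against WT under ASNase and for Atf4-/- against WT under PBS. It differed between the knockouts in both treatments. In those comparisons strain and sex cannot be told apart.

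Each group has 1 FPKM value per gene, estimated by Cuffdiff from its 3 libraries together, with a lower and an upper bound. No value of a single mouse was used, the FPKM values do not carry the depth behind them, and no comparison below has a replicate check or a p-value. Differences are on the log2(FPKM + 0.1) scale, which understates the change of low genes. The combined error is the root of the summed squared log2 distances from each value to its upper bound. Of 65637 values with a lower bound over 0, all but 5 had bounds at equal distances in FPKM. The upper bound is therefore the nearer one on the log2 scale. An error from the lower bounds would be larger and was not computed. A gene was called when both values were above 0 with status OK, FPKM was over 3 in either group, the log2 difference was over 1.5 in size and the intervals did not overlap. Among genes over 3 FPKM the median distance from a value to its bound was 51.3% to 54.2% of the value. Of the 10 hepatocyte markers, 8 had an estimate in every group, and all 8 were over 1 FPKM throughout. Their summed level ranged from 8326 FPKM in Atf4-/- ASNase to 34215 FPKM in Gcn2-/- PBS. RNA of other tissues was present and uneven: the 12 skeletal muscle markers summed to 955 and 1366 FPKM in WT PBS and WT ASNase, to 6.14 and 9.18 in the Gcn2-/- groups and to 76.9 and 180 in the Atf4-/- groups. The 8 pancreatic acinar markers summed to 51.6 FPKM in WT ASNase and 309 in Atf4-/- ASNase and to at most 2.70 elsewhere. *Eif2ak4*, which encodes GCN2, was listed between 2.19 and 3.14 FPKM in all groups, and *Atf4* at 32.3 and 29.3 FPKM in the Atf4-/- groups against 50.4 to 68.1 elsewhere. A level over the whole gene does not show a missing exon, so neither value checks the labels.

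The promoters of 3 genes are shown because of what was measured below: *Ddit4* was the gene called most often, *Sesn2* is the sestrin with the highest single level after ASNase in Atf4-/- livers, and *Sesn1* carries the only match found. The sequences are from RefSeq (build GRCm38.p6), run from 250 bases before the transcription start to 50 after it, and are written 5′ to 3′ on the strand of the gene. Capitals mark the match to GTAAACA, which stands here as its reverse complement.
Ddit4, chr10:59951721-59952020, minus strand: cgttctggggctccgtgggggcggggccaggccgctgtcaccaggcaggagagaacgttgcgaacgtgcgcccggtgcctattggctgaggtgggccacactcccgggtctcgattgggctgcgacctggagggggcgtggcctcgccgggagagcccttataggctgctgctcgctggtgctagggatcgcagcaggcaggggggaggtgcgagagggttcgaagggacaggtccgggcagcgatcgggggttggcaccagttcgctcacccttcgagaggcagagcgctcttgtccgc
Sesn2, chr4:132510407-132510706, minus strand: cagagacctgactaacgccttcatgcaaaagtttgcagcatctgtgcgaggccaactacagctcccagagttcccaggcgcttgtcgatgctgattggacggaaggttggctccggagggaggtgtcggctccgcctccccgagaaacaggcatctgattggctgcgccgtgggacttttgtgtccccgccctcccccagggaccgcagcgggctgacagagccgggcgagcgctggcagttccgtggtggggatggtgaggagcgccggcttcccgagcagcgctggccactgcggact
Sesn1, chr10:41810324-41810623, plus strand: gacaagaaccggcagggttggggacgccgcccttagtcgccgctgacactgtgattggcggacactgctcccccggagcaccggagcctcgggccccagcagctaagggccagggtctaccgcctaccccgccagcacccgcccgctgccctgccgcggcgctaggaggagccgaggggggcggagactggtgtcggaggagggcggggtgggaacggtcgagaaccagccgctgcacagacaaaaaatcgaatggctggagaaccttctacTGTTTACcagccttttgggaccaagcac
Promoters were matched for 5 of the 8 genes, *Ddit4*, *Eif4ebp2*, *Sesn1* (at 2 starts), *Sesn2* and *Sesn3*, and *Deptor*, *Eif4ebp1* and *Eif4ebp3* are named only. Both strands were searched for TGATGNAAT, an element bound by ATF4 together with C/EBP factors, for the E-box CACGTG and for the FoxO element GTAAACA. Of 32851 promoters of 300 bases, 0.965% held the first, 7.15% the second and 3.65% the third. Among the 6 promoters of these genes the only match was to GTAAACA, at the first start of *Sesn1*, and the absence of a match says only that these letters are not in this window. The 6 windows were rich in G and C, from 62.7% at *Sesn3* to 71% at the second start of *Sesn1*, against a median of 52.7% over all promoters.

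*Ddit4* was the brake with the widest range of levels. It is induced by stress and glucocorticoids in many tissues, and its product REDD1 restrains mTORC1 through TSC2. *Ddit4* (ENSMUSG00000020108) is a gene of 3 exons on chromosome 10, from 59949669 to 59951834 on the minus strand (GRCm38). Its level in WT livers was 8.15 FPKM under PBS (interval 3.99 to 12.3) and 14.1 FPKM under ASNase (7.80 to 20.5). In Gcn2-/- livers it was 2.19 FPKM under PBS (0.852 to 3.53) and 44.0 FPKM under ASNase (22.9 to 65.2). In Atf4-/- livers it was 4.96 FPKM under PBS (2.43 to 7.49) and 53.3 FPKM under ASNase (29.5 to 77.2). Both knockout groups given ASNase stood clear of every other group, and the WT groups lay between them and the knockouts given PBS. Of the 15 pairs of groups, 11 had separate intervals, and the highest level was 24.3 times the lowest. In order of level, the only neighbours with separate intervals were Gcn2-/- ASNase and, below it, WT ASNase.

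Under ASNase *Ddit4* rose 20.1-fold in Gcn2-/- livers, a log2 difference of 4.27 with a combined error of 0.87. It rose 10.8-fold in Atf4-/- livers, by 3.40 with an error of 0.79. In WT livers the difference was 0.79 with an error of 0.79, and the intervals overlapped. The gene was also lower in Gcn2-/- than in WT livers under PBS, by a log2 difference of -1.85 (error 0.89), while the same difference for Atf4-/- was -0.71 (error 0.83) and was not called. Under ASNase it was higher than in WT in both knockouts, by 1.63 (error 0.78) in Gcn2-/- and by 1.91 (error 0.75) in Atf4-/-. The differences from WT of both knockouts share the same WT groups.

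The response of *Ddit4* differed between strains by more than its combined error for Gcn2-/- against WT, by 3.48 (error 1.18), and for Atf4-/- against WT, by 2.61 (error 1.12). Between the knockouts the difference was -0.87 (error 1.18), within the error. The log2 difference of *Ddit4* exceeded that of 99.8% of 9218 eligible genes in Gcn2-/- livers, of 99.3% of 9485 in Atf4-/- livers and of 97.3% of 9084 in WT livers. Markers of several other tissues moved with the groups. The 5 matched erythroid markers summed to 217 FPKM in WT PBS, 126 in WT ASNase, 125 and 10.9 in Gcn2-/- under PBS and ASNase, and 186 and 6.68 in Atf4-/- under PBS and ASNase. Under PBS, where *Ddit4* was lower in Gcn2-/- than in WT livers, the muscle markers summed to 6.14 against 955 FPKM. Of 10 eligible markers 8 were called lower, with a median log2 difference of -8.59, against 1.04% of all eligible genes called. Under ASNase, where *Ddit4* was higher in both knockouts, 8 of 11 were called lower in Gcn2-/- and 7 of 12 in Atf4-/- than in WT livers. Of all eligible genes 4.41% and 8.25% were called in these 2 comparisons. Of the 8 macrophage markers, *Marco*, a macrophage scavenger receptor gene, was called higher in the same 4 comparisons as *Ddit4*. *Marco* was 5.69 and 3.45 FPKM in WT, 8.32 and 117.5 in Gcn2-/-, and 9.22 and 67.3 in Atf4-/- livers under PBS and ASNase. The median log2 difference of the 8 macrophage markers after ASNase stood at -0.73 for WT, 0.38 for Gcn2-/- and -1.04 for Atf4-/- livers, the last with *Cd5l* called lower. Of the neutrophil markers *S100a9* was called lower after ASNase in Gcn2-/- livers, 1 of 2 eligible, where 3.69% of all eligible genes were called. It was also called lower in Gcn2-/- than in WT livers under ASNase, where only 1 neutrophil marker was eligible, beside the 4.41%. Of the stellate and endothelial markers *Col3a1* was called lower after ASNase in Atf4-/- livers and lower in both knockouts than in WT livers under ASNase. It was 1 of 7 eligible each time, beside 7.37%, 4.41% (Gcn2-/-) and 8.25% (Atf4-/-) of all eligible genes called. The differences of the 7 ran from -3.47 to 0.16 after ASNase in Atf4-/- livers. Against WT under ASNase they ran from -1.74 to -0.01 in Gcn2-/- and from -4.47 to 0.38 in Atf4-/- livers. Of the hepatocyte markers *Fabp1* was called lower after ASNase in Atf4-/- livers and lower there than in WT livers under ASNase. It was 1 of 8 and 1 of 9 eligible, beside 7.37% and 8.25% of all eligible genes called. The hepatocyte markers went both ways, from -7.35 to 1.08 and from -7.39 to 0.78 in these comparisons. The part of the erythroid, muscle, acinar, macrophage, neutrophil, stellate, endothelial and hepatocyte markers in the *Ddit4* levels was not tested. In bulk liver, fewer cells of a type and less RNA per cell cannot be told apart.

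**Figure D1:**
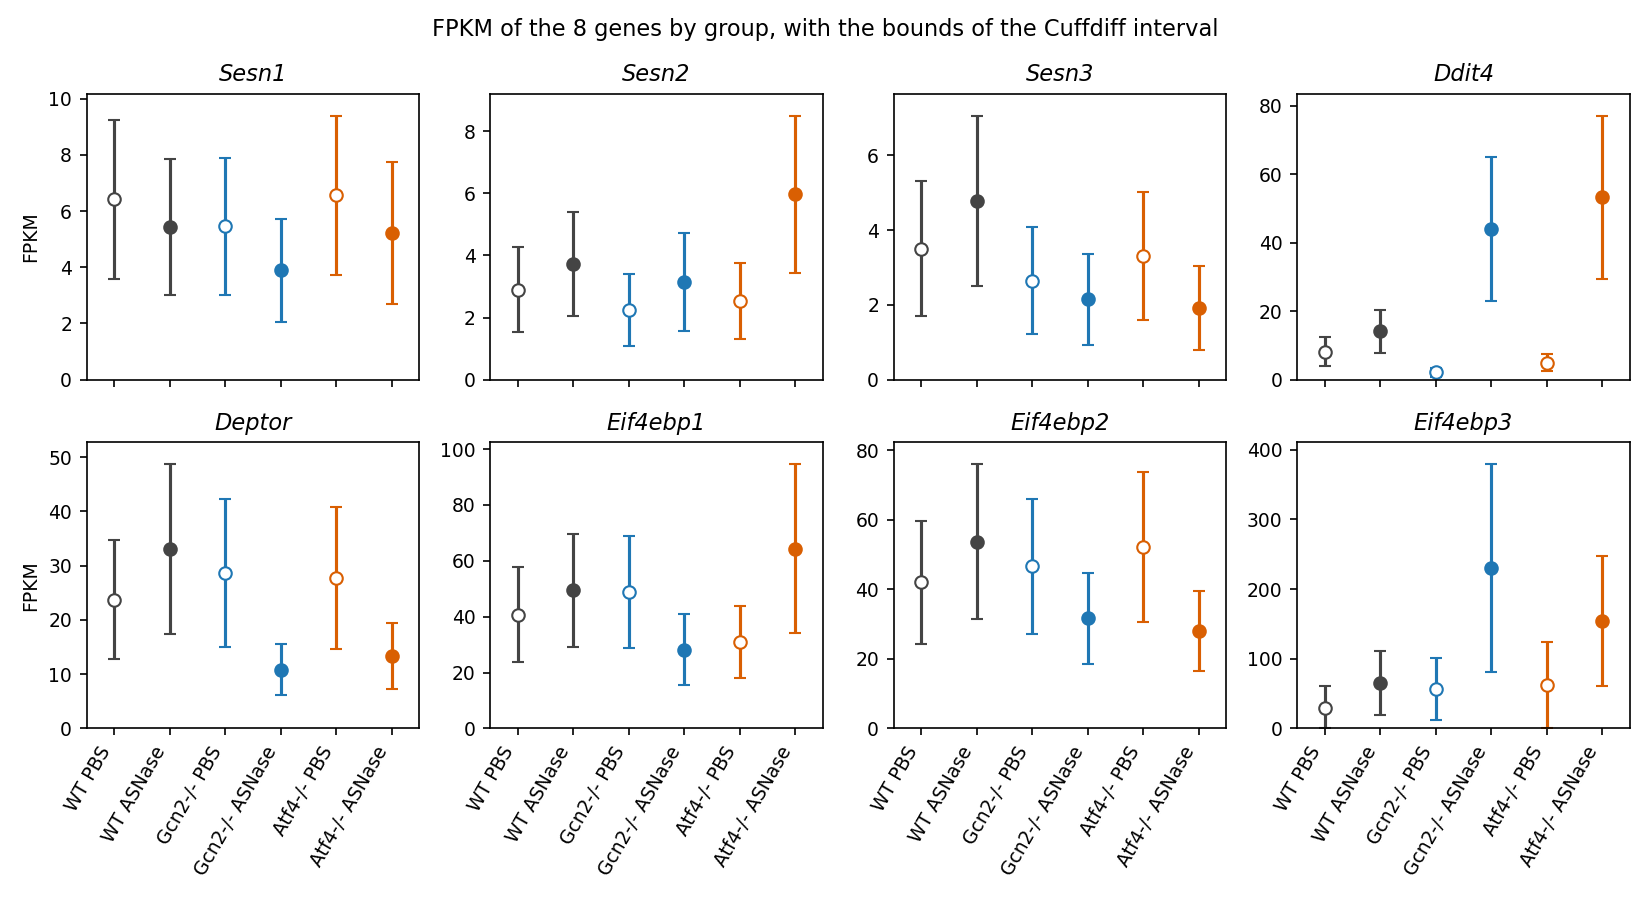
FPKM of each gene (vertical axes, linear, from 0) in the 6 groups (horizontal axes). Points are the Cuffdiff values, open for PBS and filled for ASNase, and bars run from the lower to the upper bound. *Ddit4* stands at 44.0 and 53.3 FPKM in the knockout groups given ASNase and at 14.1 or less in the other 4, while most intervals of the other genes overlap.

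The sestrins were low. *Sesn1* (ENSMUSG00000038332, chromosome 10, 41809935 to 41908424, plus strand) is a p53 and FoxO target and was the most abundant sestrin in 5 of the 6 groups. It was listed at 6.43 and 5.44 FPKM in WT under PBS and ASNase, 5.46 and 3.89 in Gcn2-/-, and 6.56 and 5.21 in Atf4-/-. All 15 pairs of its intervals overlapped, and the log2 differences after ASNase were -0.24 (error 0.74) in WT, -0.48 (error 0.76) in Gcn2-/- and -0.33 (error 0.76) in Atf4-/- livers. *Sesn1* had the narrowest range of the 8 genes, with its highest level 1.69 times its lowest.

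*Sesn2* (ENSMUSG00000028893, chromosome 4, 132492032 to 132510501, minus strand) encodes the sestrin known as a leucine sensor and as an ATF4 target. In WT livers it was 2.90 FPKM under PBS (1.52 to 4.27) and 3.71 under ASNase (2.03 to 5.39). In Gcn2-/- livers it was 2.25 FPKM (1.09 to 3.41) and 3.14 (1.57 to 4.71). Atf4-/- livers had 2.53 FPKM (1.29 to 3.77) and 5.97 (3.43 to 8.51). The ASNase value was above the PBS value in each strain, but the intervals overlapped in all 3. The group with the highest level was the one that lacks *Atf4* and received ASNase, and its interval was separate only from that of Gcn2-/- PBS, at a ratio of 2.65. The log2 difference after ASNase was 0.35 (error 0.76) in WT livers, 0.46 (error 0.81) in Gcn2-/- and 1.21 (error 0.75) in Atf4-/- livers. The last was larger than its error and was not called, and the difference between the Atf4-/- and WT responses, 0.86, was within its error of 1.07. In the same group the summed acinar markers stood at 309 FPKM, and their part in the *Sesn2* level was not tested.

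*Sesn3* (ENSMUSG00000032009, chromosome 9, 14275067 to 14333101, plus strand), known as a FoxO target, had its highest levels in WT livers, at 3.50 FPKM under PBS and 4.79 under ASNase. It was 2.64 and 2.15 FPKM in Gcn2-/- and 3.31 and 1.92 in Atf4-/- under PBS and ASNase. All 15 pairs of intervals overlapped. Under ASNase the log2 difference from WT was -1.12 (error 0.84) in Gcn2-/- and -1.27 (error 0.84) in Atf4-/-, both beyond their error and neither called. The responses of Atf4-/- and WT livers, -0.76 and 0.44, differed by -1.20, just over the error of 1.18, and with a pseudocount of 1 the difference was within its error. The muscle markers were highest in the same groups, WT ASNase and WT PBS. In the knockouts their sum was higher after ASNase, where *Sesn3* was listed lower. It was 6.14 and 9.18 FPKM in Gcn2-/- and 76.9 and 180 FPKM in Atf4-/- livers under PBS and ASNase. The part of the muscle markers in the *Sesn3* level was not tested.

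Summed over the family, the sestrins ranged only from 9.17 FPKM in Gcn2-/- ASNase to 13.9 FPKM in WT ASNase. *Sesn2* made up 22.6% and 26.6% of that sum in WT under PBS and ASNase, 21.7% and 34.2% in Gcn2-/-, and 20.4% and 45.6% in Atf4-/-. In Atf4-/- livers given ASNase *Sesn2* was thus listed above *Sesn1*, at 5.97 against 5.21 FPKM, with intervals that overlapped.

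*Deptor* (ENSMUSG00000022419, chromosome 15, 55112317 to 55259271, plus strand) encodes a subunit that inhibits both mTOR complexes. In WT livers it was 23.7 FPKM under PBS (12.8 to 34.7) and 33.1 under ASNase (17.5 to 48.7). In Gcn2-/- livers it was 28.7 FPKM (15.1 to 42.3) and 10.8 (6.20 to 15.5). Atf4-/- livers had 27.7 FPKM (14.7 to 40.7) and 13.3 (7.28 to 19.4). The lowest levels were those of both knockouts given ASNase, and the interval of Gcn2-/- ASNase was separate from that of WT ASNase alone.

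The log2 difference of *Deptor* after ASNase was 0.48 (error 0.78) in WT livers, -1.40 (error 0.76) in Gcn2-/- and -1.05 (error 0.77) in Atf4-/- livers. Both knockout differences exceeded their error, and neither was called. Under ASNase *Deptor* was lower in Gcn2-/- than in WT livers by -1.60 (error 0.75), which was called, and the corresponding -1.30 (error 0.77) in Atf4-/- was not. The knockout responses differed from that of WT by -1.87 (error 1.09) in Gcn2-/- and -1.53 (error 1.096) in Atf4-/-, and from each other by 0.35 (error 1.08). The hepatocyte markers went both ways after ASNase in the knockouts. Their log2 differences ran from -3.40 to 1.70 over 9 eligible markers in Gcn2-/- livers, with a median of -0.99 and 0 called. Over 8 in Atf4-/- livers they ran from -7.35 to 1.08, with a median of -0.67 and *Fabp1*, a fatty acid binding protein gene, called lower. Over 9 in WT livers they ran from -0.52 to 0.09, with a median of -0.03 and 0 called. Between Gcn2-/- and WT livers under ASNase, where *Deptor* was called, their differences ran from -2.53 to 0.76 over 9 eligible markers. Their median there was -0.72, and 0 were called. In the same comparison 8 of 11 eligible muscle markers and 2 of 3 erythroid markers were called lower, against 4.41% of all eligible genes called. The part of these markers in the *Deptor* levels was not tested. Of its exonic bases 3.41% overlap *Gm9920* on the other strand.

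The 4E-BP genes were each listed at 27.9 FPKM or more in every group. Under ASNase *Ddit4* was nonetheless listed above *Eif4ebp1* and *Eif4ebp2* in Gcn2-/- livers and above *Eif4ebp2* in Atf4-/- livers, each time with overlapping intervals. *Eif4ebp1* (ENSMUSG00000031490, chromosome 8, 27260329 to 27276674, plus strand), the best known mTORC1 substrate of the family, was 40.7 FPKM in WT PBS (23.7 to 57.8) and 49.5 in WT ASNase (29.3 to 69.6). In Gcn2-/- livers it was 48.9 FPKM under PBS (28.8 to 69.0) and 28.2 under ASNase (15.6 to 40.9). Atf4-/- livers had 30.9 FPKM (17.9 to 43.9) and 64.3 (34.1 to 94.5). The highest and the lowest level were thus both found in knockouts given ASNase, Atf4-/- and Gcn2-/- in that order, although all 15 pairs of intervals overlapped. The log2 differences after ASNase had opposite signs in the knockouts, at -0.79 (error 0.73) in Gcn2-/- and 1.06 (error 0.75) in Atf4-/-, with 0.28 (error 0.70) in WT. The knockout responses differed by 1.84 (error 1.05), and this was the only one of the 7 genes eligible in both knockouts for which that difference exceeded its error. Among all genes eligible in both knockouts 8.19% did so. The acinar markers summed to 0.541 FPKM in Gcn2-/- ASNase and 309 in Atf4-/- ASNase, and their part in this difference was not tested.

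*Eif4ebp2* (ENSMUSG00000020091, chromosome 10, 61428491 to 61452661, minus strand), which encodes another 4E-BP, was 42.0 and 53.7 FPKM in WT under PBS and ASNase. It was 46.6 and 31.6 FPKM in Gcn2-/- and 52.1 and 27.9 in Atf4-/-. The lowest levels were again those of the knockouts given ASNase, but all 15 pairs of intervals overlapped. The log2 differences after ASNase were 0.35 (error 0.71) in WT, -0.56 (error 0.71) in Gcn2-/- and -0.90 (error 0.70) in Atf4-/- livers. The Atf4-/- response differed from that of WT by -1.25 (error 1.001), and the Gcn2-/- response by -0.91, within its error of 1.002. The hepatocyte markers summed to 28311 and 22422 FPKM in WT under PBS and ASNase, 34215 and 11635 in Gcn2-/-, and 22058 and 8326 in Atf4-/-. Single markers went both ways, and their part in the *Eif4ebp2* levels was not tested.

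*Eif4ebp3* (ENSMUSG00000090264, chromosome 18, 36664060 to 36665917, plus strand), the third 4E-BP gene, had the highest single level of the 8 genes and the widest intervals. In WT livers it was 29.6 FPKM under PBS (0 to 61.5) and 65.1 under ASNase (19.1 to 111.2). In Gcn2-/- livers it was 56.5 FPKM (11.4 to 101.5) and 230.3 (81.7 to 378.8). In Atf4-/- livers it was 61.6 FPKM (0 to 124.4) and 153.9 (61.0 to 246.8). The ASNase value was above the PBS value in every strain, with overlapping intervals each time, and only Gcn2-/- ASNase and WT PBS were separate. The log2 difference after ASNase was 1.13 (error 1.30) in WT livers, 2.03 (error 1.11) in Gcn2-/- and 1.32 (error 1.22) in Atf4-/- livers, and no pair of these responses differed beyond its error. The gene has 744 exonic bases, of which 501 (67.3%) also belong to a readthrough gene, AC115631.1, on the same strand. That gene has no row in the table, so reads of *Eif4ebp3* and of the readthrough transcript cannot be told apart. *Ankhd1*, which shares the locus in the table, was listed at 13.3 and 17.0 FPKM in WT under PBS and ASNase, 16.4 and 19.1 in Gcn2-/-, and 15.5 and 20.4 in Atf4-/-.

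The sum of the 4E-BP genes was 112.4 and 168.3 FPKM in WT under PBS and ASNase, 151.9 and 290.1 in Gcn2-/-, and 144.6 and 246.1 in Atf4-/-. The share of *Eif4ebp3* in that sum was 26.4% and 38.7% in WT, 37.2% and 79.4% in Gcn2-/-, and 42.6% and 62.5% in Atf4-/-. Because the intervals of *Eif4ebp3* are wide, these shares are descriptions of the estimated levels.

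**Figure D2:**
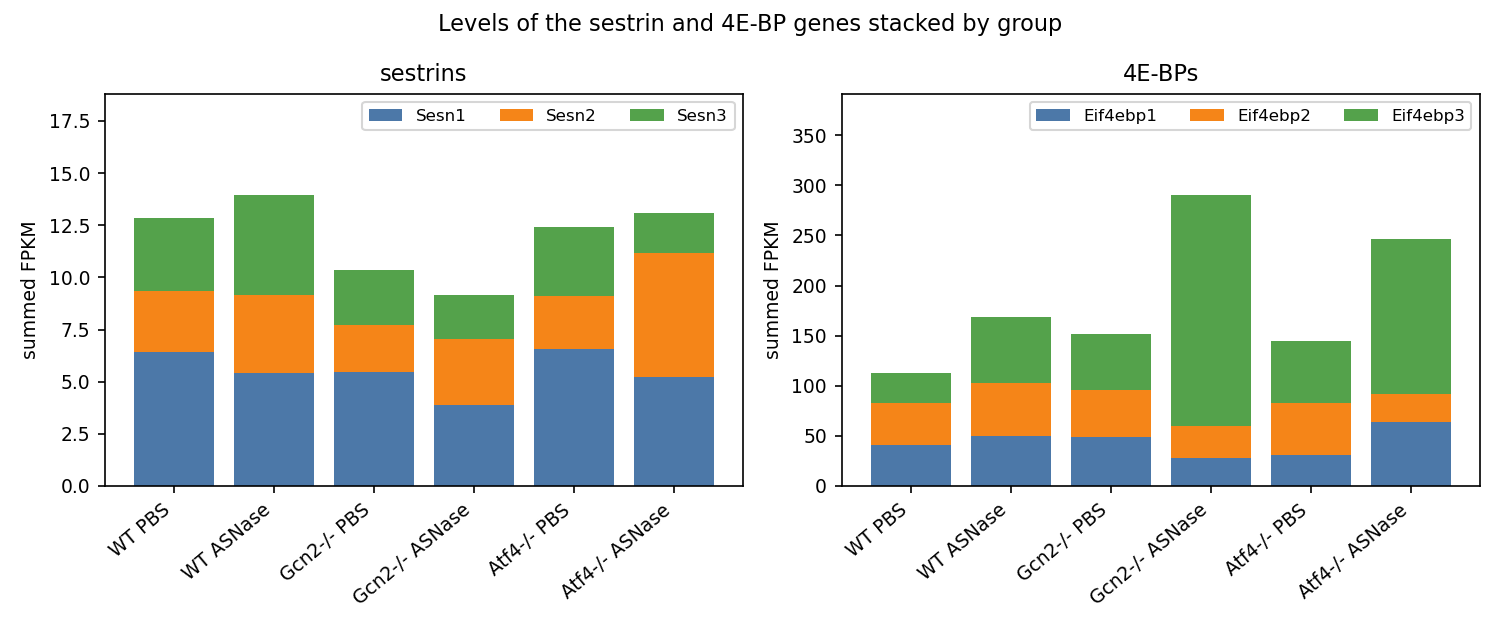
Summed FPKM (vertical axes, linear, from 0) of the sestrin genes and of the 4E-BP genes in the 6 groups, stacked by gene and drawn without error bars. *Sesn2* makes up 45.6% of the sestrins in Atf4-/- ASNase, and *Eif4ebp3* makes up 79.4% of the 4E-BPs in Gcn2-/- ASNase.

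Counted over the set, 0 of the 8 genes were called after ASNase in WT livers, where 0.881% of all eligible genes were. In Gcn2-/- livers 1 of 7 eligible genes was called, *Ddit4*, against 3.69% of all genes, and in Atf4-/- livers 1 of 8, again *Ddit4*, against 7.37%. Between strains under PBS, 1 of 7 was called for Gcn2-/- against WT (*Ddit4*, 1.04% of all genes) and 0 of 7 for Atf4-/- against WT (1.12%). Under ASNase 2 of 8 were called for Gcn2-/- against WT, *Ddit4* higher and *Deptor* lower (4.41%), and 1 of 8 for Atf4-/- against WT, *Ddit4* (8.25%). The knockouts did not differ by a called gene in either treatment, with 0.976% of all genes called under PBS and 3.19% under ASNase. With counts of 0 to 2 of 8 the results are those of single genes and not of the brakes as a group.

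Without the limit on the fold, and with FPKM over 1 in place of 3, the same genes had separate intervals in each comparison. The share of all genes with separate intervals after ASNase was 1.04% in WT livers, 3.86% in Gcn2-/- livers and 7.09% in Atf4-/- livers, 1.23% and 1.3% for Gcn2-/- and Atf4-/- against WT under PBS, 4.69% and 8.07% for the same strains under ASNase, and 1.11% and 3.38% between the knockouts. For the eligible genes of the set the median log2 difference after ASNase was 0.40 in WT livers, -0.48 in Gcn2-/- livers and 0.36 in Atf4-/- livers. Over all eligible genes it was -0.01, 0.02 and 0.08 in the same order. The difference was above 0 for 7 of the 8 genes in WT, 3 of 8 in Gcn2-/- and 4 of 8 in Atf4-/- livers, and for 49.0%, 51.5% and 53.8% of all eligible genes. None of the 8 exceeded its combined error in WT.

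**Figure D3:**
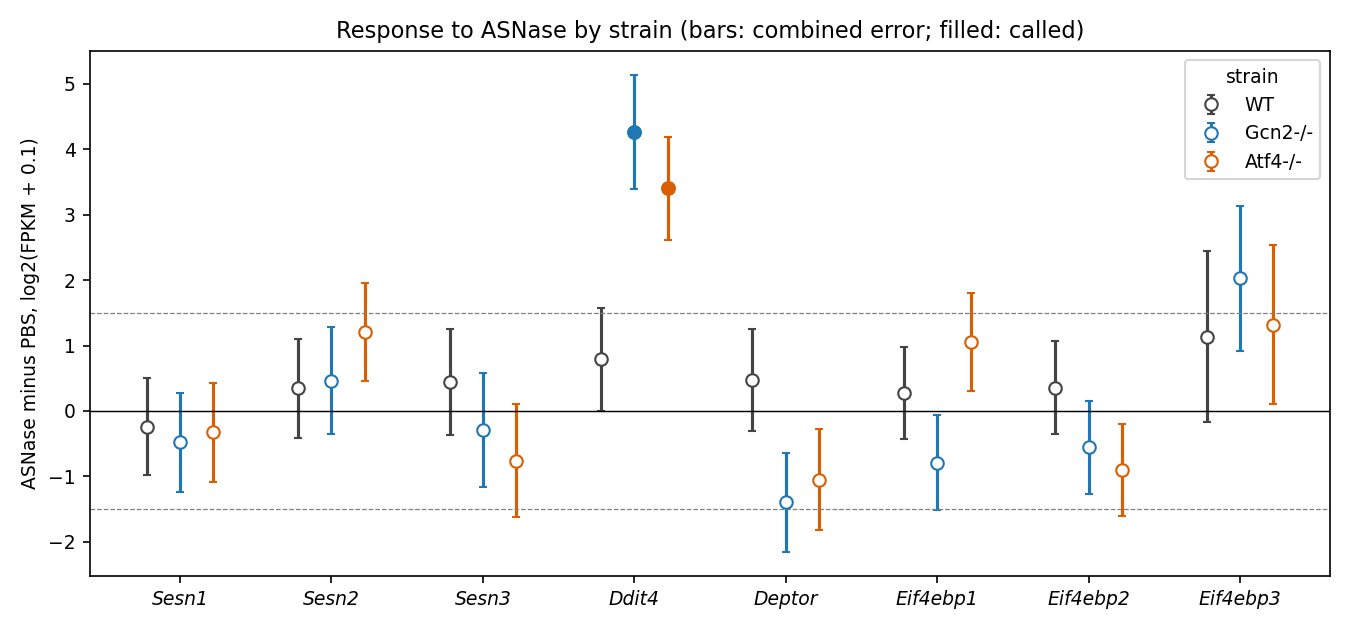
Log2 difference of ASNase minus PBS on the log2(FPKM + 0.1) scale (vertical axis) for each gene (horizontal axis) in WT, Gcn2-/- and Atf4-/- livers. Points are differences, bars are combined errors, filled points were called and dashed lines stand at 1.5 and -1.5. Only *Ddit4* is filled, at 4.27 in Gcn2-/- and 3.40 in Atf4-/-.

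Responses to ASNase that differed between strains by more than the combined error were found for 3 of the 7 genes eligible in both strains in Gcn2-/- against WT (*Ddit4*, *Deptor* and *Eif4ebp1*), where 8.89% of all eligible genes did so. For *Eif4ebp1* that difference was -1.07 with an error of 1.01. They were found for 4 of 8 in Atf4-/- against WT (*Sesn3*, *Ddit4*, *Deptor* and *Eif4ebp2*), where 14% did so. Both counts rest on the same 2 WT groups and so are not independent of each other. They also rest on the upper bounds, the nearer side on the log2 scale, and could be smaller with the lower bounds.

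**Figure D4:**
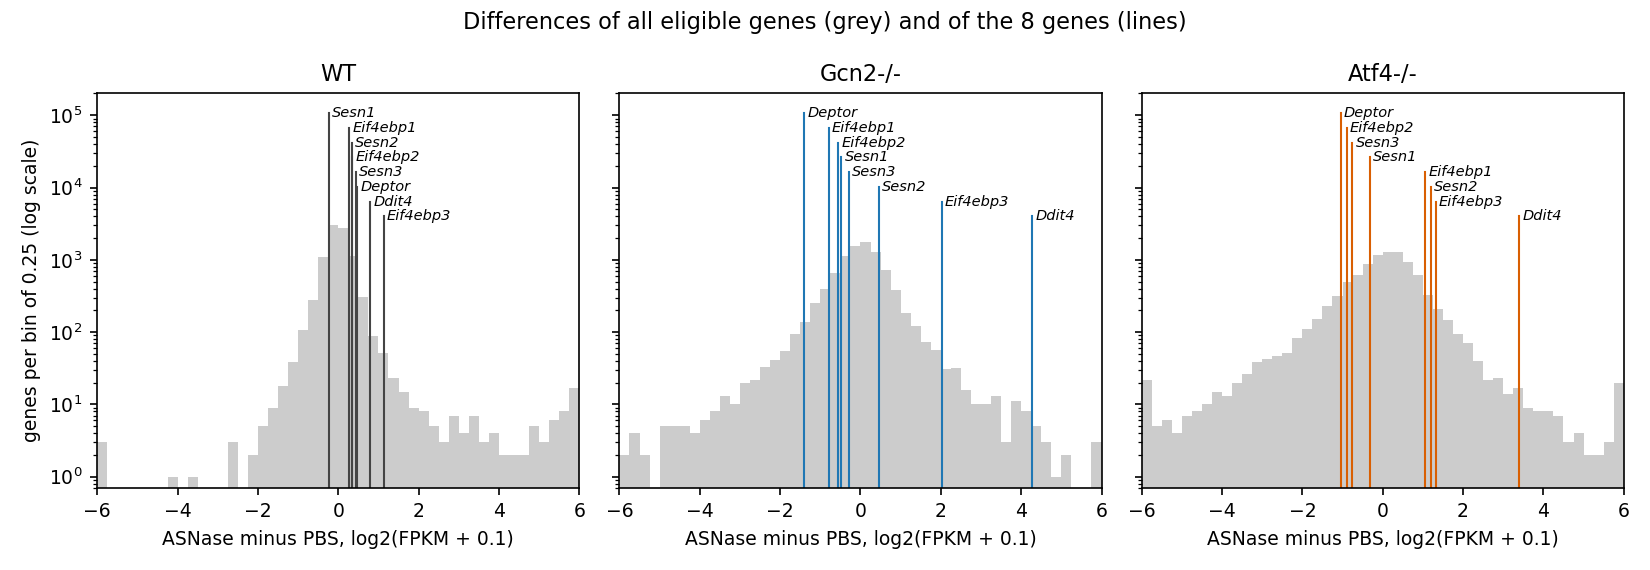
Number of eligible genes per bin of 0.25 (vertical axis, log scale) by their log2 difference of ASNase minus PBS (horizontal axis) in WT, Gcn2-/- and Atf4-/- livers, with values beyond 6 drawn in the outermost bins. Lines mark the 8 genes: *Ddit4* lies at 0.79, 4.27 and 3.40 in turn, in the upper tail. The other lines lie nearer the centre, except that of *Eif4ebp3* in WT, at 1.13. *Sesn3* is drawn in Gcn2-/- too, where both of its levels were under 3 FPKM.

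The other genes of the pathway were taken from lists. Of 72 names in 7 lists, covering the mTORC1 core, TSC and Rheb, Rag GTPases with Ragulator and folliculin, GATOR with KICSTOR and amino acid sensors, insulin signalling, AMPK with LKB1, and mTORC1 substrates with cap-binding targets, 69 were matched. After ASNase 0 of 56 eligible genes were called in WT and 0 of 58 in Gcn2-/- livers, and 1 of 57 was called in Atf4-/- livers, beside the 0.881%, 3.69% and 7.37% of all eligible genes. That gene was *Fnip2*, which encodes a folliculin partner and fell from 8.02 to 2.50 FPKM, a log2 difference of -1.64 (error 0.85). The median log2 difference was 0.13, -0.04 and 0.10 in WT, Gcn2-/- and Atf4-/- livers, with a range from -1.64 to 1.55 in the last. *Irs2*, which encodes an insulin receptor substrate, had separate intervals in Atf4-/- livers, at 5.66 and 16.0 FPKM under PBS and ASNase, and its log2 difference of 1.49 (error 0.77) lay just under the limit. Between strains under ASNase 3 of 56 were called for Atf4-/- against WT (8.25% of all genes): *Irs2* was higher by 2.55 (error 0.77), *Fnip2* was lower by a difference of -1.68 (error 0.80), and the phosphatidate phosphatase gene *Lpin1*, at 19.2 against 67.9 FPKM, was lower by a difference of -1.82 (error 0.81). In the other 5 comparisons between strains 0 pathway genes were called. By list the medians in Atf4-/- livers ran from -0.46 for the Rag, Ragulator and folliculin genes to 0.69 for the 10 eligible GATOR, KICSTOR and sensor genes, none of which was called. *Eif4e*, the partner of the 4E-BPs, was 17.1 and 16.1 FPKM in WT under PBS and ASNase, 17.2 and 24.5 in Gcn2-/-, and 16.5 and 25.2 in Atf4-/-, with overlapping intervals in each strain.

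**Figure D5:**
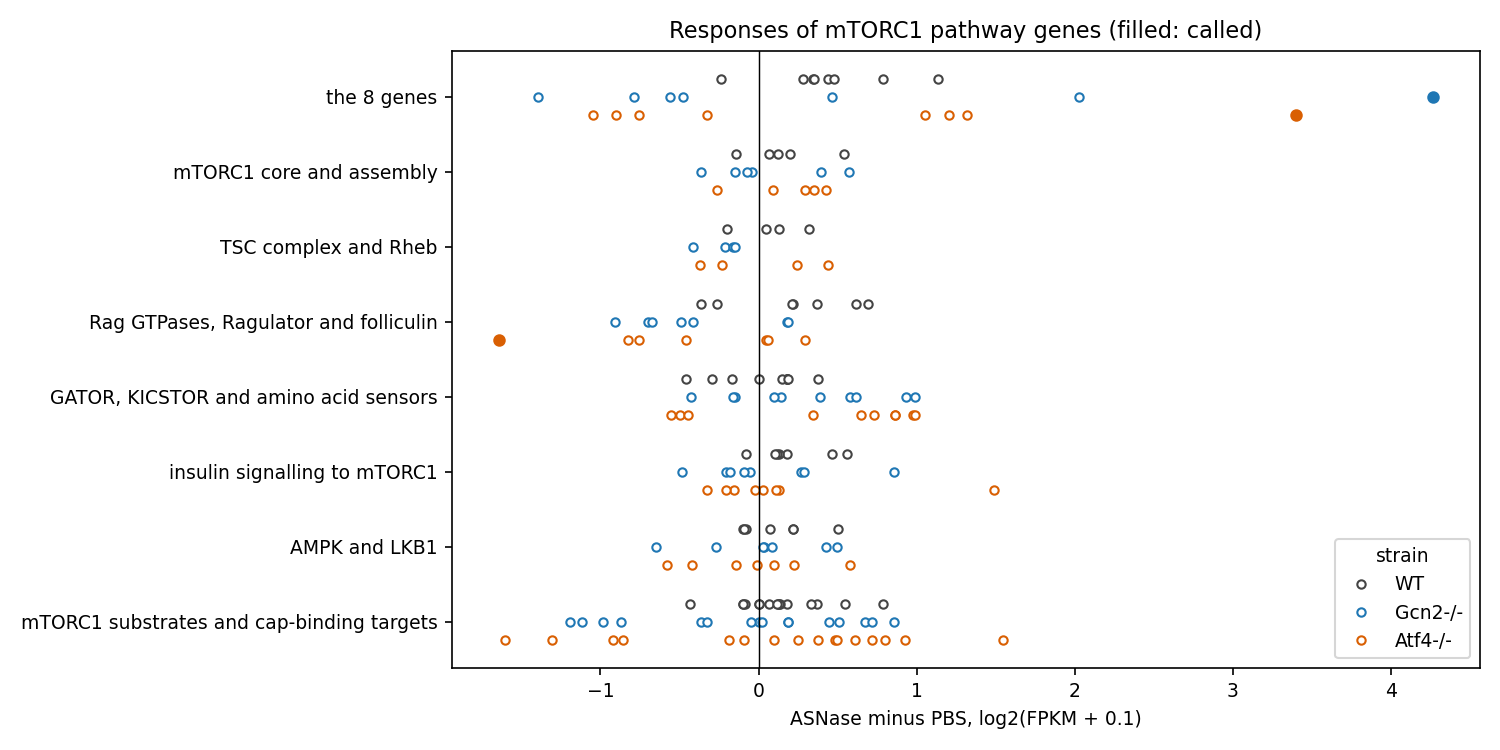
Log2 difference of ASNase minus PBS (horizontal axis) for the eligible genes of each pathway list and for the 8 brakes (rows), in WT, Gcn2-/- and Atf4-/- livers. Each point is a gene and filled points were called: *Ddit4* in both knockouts, and *Fnip2* at -1.64 in Atf4-/-.

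Genes that share regulators with the brakes were listed beside them. Of 13 genes of the integrated stress response, *Trib3*, a pseudokinase gene and ATF4 target, was the only one of 12 eligible called after ASNase in WT livers, from 5.46 to 19.5 FPKM, where 0.881% of all eligible genes were called. Of 9 eligible ones 0 were called in Gcn2-/- livers, against 3.69% of all eligible genes. In Atf4-/- livers 6 of 10 were called, against 7.37% of all eligible genes, and all 6 were higher: *Trib3* (3.63 to 149.6 FPKM), the asparagine synthetase gene *Asns* (0.591 to 20.1), *Atf3* (0.896 to 13.3), *Atf5* (80.0 to 338.9), *Chac1* (3.06 to 23.7) and *Nupr1* (0.501 to 7.07). The interval of *Trib3* overlapped in Gcn2-/- livers, where *Ddit4* was called, and its log2 difference there was -1.13 (error 0.84). The acinar markers moved in the same strains as the called stress genes. After ASNase 4 of 5 eligible acinar markers were called higher in WT livers and 5 of 7 in Atf4-/- livers. In Gcn2-/- livers 0 were eligible. Their sum went from 1.43 to 51.6 FPKM in WT, 1.51 to 0.541 in Gcn2-/- and 2.70 to 309 in Atf4-/- livers. Their part in the levels of the stress genes was not tested.

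Of the 10 genes of the p53 and FoxO list, *Cdkn1a*, which encodes the cell cycle inhibitor p21, rose from 1.08 to 42.6 FPKM in Gcn2-/- and from 0.928 to 45.2 FPKM in Atf4-/- livers, the same strains in which *Ddit4* was called. In WT it was 2.13 and 4.30 FPKM, with overlapping intervals. The gluconeogenic gene *G6pc* was lower after ASNase in Atf4-/- livers, from 153.7 to 40.8 FPKM. Of the 10 eligible genes of this list, 0 were called after ASNase in WT and 1 in Gcn2-/- livers. In Atf4-/- livers 1 was called higher and 1 lower. Of all eligible genes 0.881%, 3.69% and 7.37% were called in the same order of strains. Of 6 genes known to be induced by glucocorticoids, the clock gene *Per1* rose from 4.77 to 18.1 FPKM in Gcn2-/- livers, and *Tsc22d3* (GILZ) fell from 84.7 to 17.3 FPKM in Atf4-/- livers. Each was the 1 gene called of 6 eligible in its strain, beside the same shares of all eligible genes, and 0 of 6 were called in WT livers. This list had a median log2 difference of 0.68 in WT livers, 1.07 in Gcn2-/- livers and 0.02 in Atf4-/- livers.

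The genes most like each brake in level across the 6 groups were ranked by Pearson's r of log2(FPKM + 0.1) among 3960 genes that spanned at least 1 on that scale. With 6 points that share the same groups r is a description. For *Ddit4* they were *Lyve1*, *Tat*, *Zbtb16*, *Zfp295* and *Slc6a8*, with r from 0.976 to 0.995. *Tat*, which encodes the liver enzyme tyrosine aminotransferase, was 1103 and 1169 FPKM in WT under PBS and ASNase, 612.7 and 1987 in Gcn2-/-, and 951.8 and 2013 in Atf4-/-. The listed values stand in the same order of groups as those of *Ddit4*. The intervals of *Tat* overlapped in every pair of groups, so its order is not resolved. They ran from 202 to 1024 FPKM in Gcn2-/- PBS and from 0 to 4100 FPKM in Gcn2-/- ASNase. For *Sesn2* they were *Clip1*, *Ptp4a1*, *Mapkapk2*, *Mast2* and *Plec* (0.984 to 0.995). For *Sesn3* they were *Gm13341*, *Pdk1*, *Gsn*, *Setd4* and *Pfkm* (0.959 to 0.989). The last of these encodes the muscle form of phosphofructokinase and was 12.7 and 15.5 FPKM in WT against 1.76 to 6.91 FPKM in the knockout groups.

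For *Deptor* the genes were *Abcc2*, *Stbd1*, *Klhl21*, *Slc27a2* and *5031439G07Rik* (0.990 to 0.996). *Deptor* had the most company, with 66 genes over an r of 0.95, against 7 for *Eif4ebp1*. For *Eif4ebp1* they were *Hspa9*, *Lpl*, *Ip6k1*, *Acot2* and *Fads3* (0.970 to 0.981). For *Eif4ebp3* they were *Gde1*, *Tmem107*, the clock gene *Per2*, *Rbm12b* and *Sult1e1* (0.980 to 0.993). *Sesn1* and *Eif4ebp2* spanned less than 1 on the log2 scale and were not ranked.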

How the data were processed

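Liver RNA-Seq of 18 mice in 6 groups of 3, formed from the sample labels, was analysed. The authors prepared poly-A libraries, aligned reads to mm10 (TopHat 2.1.0 and Bowtie 1.1.2 in the submitters' processing notes) and estimated FPKM with Cufflinks 2.2.1 and Cuffdiff. The deposited FPKM table holds, for each of 37303 genes and 6 groups, a value pooled by the authors over 3 libraries, the bounds of its interval and a status. All value columns were mapped, and 0 were left outside the map. Depth per library cannot be read from the FPKM table, so precision was taken from the interval.

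Differences were computed on log2(FPKM + 0.1) with Python 3.11.15, pandas 2.3.3 and numpy 2.4.6 over the whole table, with the rules given above, and this way of calling genes was checked on simulated data. The 8 genes and all lists were chosen with earlier results of these data known. Genes named from the pathway and stress lists were those called after ASNase, at most 6 per list. *Irs2*, *Lpin1*, *Marco*, *Cd5l*, *S100a9*, *Col3a1* and *Fabp1* were added after their values were seen. For each of the 8 genes that spanned at least 1, the 5 genes of highest r were named, among genes with status OK and above 0 in all groups and over 3 FPKM in some group. *Eif4e*, *Ankhd1* and *Gm9920* were named for their tie to a member, and *Tat* and *Pfkm* were singled out after their values were seen. Positions are from GENCODE M21 and promoters from RefSeq. Protein sequences were not used here. Alternatives tried were other pseudocounts, other FPKM limits, another fold limit, another scaling and the combined error in place of separate intervals.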

Additional observations from a re-analysis of the deposited data

Results flagged for a closer look

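The response to ASNase differed between strains by more than the combined error of the 4 group values in 8 cases. With 1 pooled value per group none of these differences was tested against the spread between mice. The combined error uses the upper bounds, the nearer side on the log2 scale. With the larger error from the lower bounds, which was not computed, fewer cases could remain. For *Ddit4* the Gcn2-/- response was above that of WT by 3.48 and the Atf4-/- response by 2.61 on the log2 scale, all responses being above 0. For *Deptor* the corresponding differences were -1.87 and -1.53, from responses below 0 in both knockouts and above 0 in WT. For *Eif4ebp1* the Gcn2-/- response was below that of WT by a difference of -1.07, and the Atf4-/- response was above that of Gcn2-/- by 1.84, with opposite signs in each pair. For *Sesn3* and *Eif4ebp2* the Atf4-/- response stood below that of WT, by differences of -1.20 and -1.25, again with opposite signs, and with a pseudocount of 1 that of *Sesn3* was within its error. The WT groups are shared by 7 of these 8 differences.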

How the results depend on the processing

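Pseudocounts of 1 and 0.01, FPKM limits of 1 and 0, a log2 limit of 1, median-ratio scaling of the groups (factors 0.977 to 1.035) and the combined error in place of separate intervals were tried. Of the counts of called genes and of differing responses, 71 values under these alternatives stayed within 1.5 times the reported count. Among these, a pseudocount of 1 gave 3 differing responses for Atf4-/- against WT in place of 4, without *Sesn3*, where 13.5% of all genes differed. The combined error gave 3 called genes in place of 2 for Gcn2-/- against WT under ASNase, adding *Eif4ebp3*, where 7.16% of all genes were called. The exception to the range of 1.5 times was ASNase against PBS in Gcn2-/- livers: with the combined error in place of separate intervals 2 genes were called, *Ddit4* and *Eif4ebp3*, against 1, and 6.11% of all genes were called. That rule asks less of genes with wide intervals by construction. Only the scaling could turn the sign of a gene's difference, since the other alternatives leave the sign fixed by construction, and under it 0 signs changed among the 8 genes in the 9 comparisons. No paired analysis was possible because the table holds 1 value per group, and leaving out a mouse in turn was not run for the same reason. Intervals that reach a median of 51.3% to 54.2% of the value on either side limit the data to large differences.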
